A study of Mus musculus with 6 samples.

Results

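The genes described here are 10 regulators of the G1 phase of the cell cycle: the D-type cyclins Ccnd1, Ccnd2 and Ccnd3, the E-type cyclins Ccne1 and Ccne2, the kinases Cdk4, Cdk6 and Cdk2, and the kinase inhibitors Cdkn1b (p27) and Cdkn2c (p18). They were taken by gene symbol from a table of 18908 genes, and all 10 had a row and passed the filter on low counts. RNA was sequenced from 6 mouse libraries, all labelled bone marrow-derived macrophages. The 3 control libraries carry the genotype label WT and a control short hairpin RNA (shRNA, which lowers the transcript it matches), and the other 3 carry an shRNA against VprBP1 and the genotype label VprBP1 Knockdown. Strain, age, number of animals and hairpin sequence are not given in the labels, and the labels do not name separate cultures for the 3 libraries per group, so every p-value below rests on library-to-library spread that could be purely technical. VprBP is the older name of Dcaf1, the substrate receptor of a CRL4 ubiquitin ligase.

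A cell leaves G1 when cyclin-dependent kinases phosphorylate the retinoblastoma family of pocket proteins and so free the E2F transcription factors. D-type cyclins, which rise with growth signals, activate Cdk4 and Cdk6, and E-type cyclins then activate Cdk2. Inhibitors of the INK4 family such as Cdkn2c bind Cdk4 and Cdk6, whereas inhibitors of the CIP/KIP family such as Cdkn1b bind cyclin-kinase complexes and block Cdk2. In macrophages, growth factor signalling through Csf1r is known to induce D-type cyclins, and in pigment cells Cdk4, D-type cyclins and INK4 inhibitors are well known from melanoma.

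The libraries held 16839445 to 21838875 counts, and 3 counts, the limit that a count of 0 allows, correspond to 0.144 to 0.186 CPM (counts relative to the scaled size of the library). Dcaf1, the targeted gene, stood at 42.2, 43.5 and 40.7 CPM in the control group and at 36.0, 34.6 and 36.8 CPM in the other group, a difference of -0.24 on the log2 scale (SE 0.07, edgeR adjusted p = 0.00625). This small difference was no longer called when libraries were scaled by size only (-0.12, edgeR adjusted p = 0.137). The groups are named shControl and shVprBP below for what their labels say, and each direction is one between labels. Of 11 macrophage markers 4 had a row, with none for Csf1r, Adgre1, Itgam, Spi1, Tyrobp, Aif1 and Fcgr1, and the sum of the 4 was 37.1 to 40.2 CPM in the shControl and 16.5 to 18.2 CPM in the shVprBP libraries. Cd68 alone made that fall (31.6 ± 1.20 and 1.01 ± 0.270 CPM), while Lyz2 and Mertk were 2.37-fold and 2.504-fold higher and Cd14 was not called. All 8 pigment cell markers had a row and summed to 21075 to 21454 and 19654 to 20163 CPM. The labelled cell type was thus not borne out by its markers. The pigment sums hid opposite changes between the labels. Tyr, Sox10 and Mitf were 3.79-fold, 3.51-fold and 3.44-fold higher in the shVprBP libraries, and Dct and Tyrp1 were higher by less. Pmel, Mlana and Slc45a2 were 2.78-fold, 2.68-fold and 3.81-fold lower. Osteoclast markers (3 of 7 with a row, Oscar at 0 in the shVprBP libraries) summed to at most 1.73 CPM. Stromal markers (5 of 6 with a row) summed to 47.3 to 50.3 and 366 to 418 CPM, the latter mostly Col1a1 (14.9 ± 1.07 and 302 ± 28.1 CPM), with Pdgfra and Pdgfrb also higher and Dcn lower (2.70 ± 0.297 and 1.26 ± 0.365 CPM). Sums were 108 to 113 and 771 to 833 CPM for proliferation markers (5 of 5 with a row), and genes of the mitochondrial genome held 8.65% to 9.48% and 4.89% to 5.56% of the counts. These lists and shares moved with the labels and so with each result below, and their part in it was not tested. In bulk RNA, a change in the share of cells that express a gene and a change in RNA per cell cannot be told apart.

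Of the 10 G1 genes, 9 were higher in the shVprBP libraries and none was lower, and Cdk4 was not called. A call means p below 0.05 after Benjamini-Hochberg adjustment, from edgeR's quasi-likelihood test of 14641 genes. The 2 labels differ widely: 75.0% of tested genes were called, with 37.9% of tested genes higher and 37.0% lower. A call is therefore common in this comparison, while a share of 9 in 10 on the higher side stands above the 37.9% of all tested genes. The increase was at least 1 on the log2 scale for 7 of the 10, against 19.4% of all tested genes, and none was lower by that much, against 14.2%. Cdkn1b, at 1.01, lay at the edge of that threshold: it was below it with upper-quartile scaling (0.988), with a filter of 5 CPM (0.994) and without control library 1 (0.986), which left 6 genes. The 3 shVprBP libraries lay above all 3 shControl libraries for 9 of the 10, and none lay wholly below; of all tested genes, 39.0% lay wholly above and 38.2% wholly below, 77.2% in either direction. The median log2 difference of the 10 genes was 1.28, beside -0.01 for all tested genes. The genes were chosen with earlier results of these data known, so these counts are descriptions of the 10 and no test of them as a group. An exact two-sided permutation test of 3 against 3 libraries gave p = 0.1, the smallest it allows, for each of the 9 genes, and p = 0.8 for Cdk4.

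**Figure D1:**
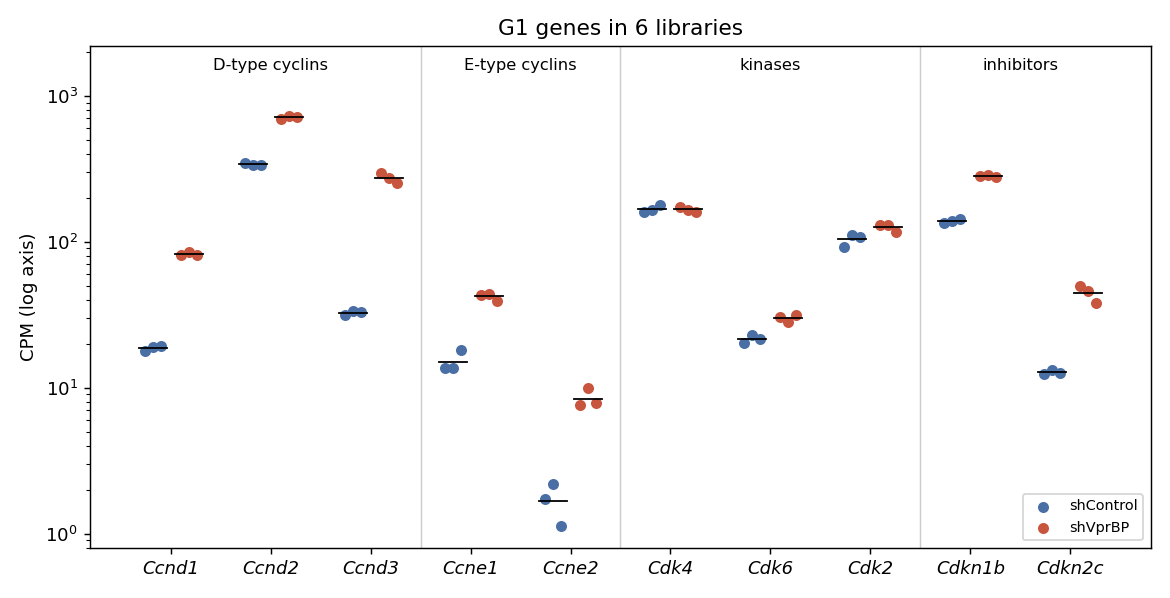
Levels of the 10 G1 genes, in CPM on a log axis, in each of the 3 shControl (blue) and 3 shVprBP (red) libraries, with a black bar at each group mean. The groups are apart for every gene but Cdk4, whose 6 libraries lie between 160.5 and 177 CPM.

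The 3 D-type cyclins rose by unequal amounts. Ccnd3 (ENSMUSG00000034165.16; GRCm38 chromosome 17, 47505051 to 47599691, plus strand) stood at 31.5, 33.3 and 32.8 CPM in shControl libraries 1, 2 and 3 and at 296, 272 and 251 CPM in shVprBP libraries 1, 2 and 3. Every shVprBP library was far above every shControl one. The increase was 8.41-fold (95% interval 7.65 to 9.25, log2 difference 3.07, SE 0.07, edgeR adjusted p = 2.17e-17), and 4.03% of tested genes had a more positive log2 difference. Ccnd1 (ENSMUSG00000070348.5; chromosome 7, 144929931 to 144939925, minus strand), the D-type cyclin best known as an oncogene, stood at 17.7, 18.96 and 19.3 CPM and at 81.2, 84.6 and 81.5 CPM. The groups were well apart and narrow, and the increase was 4.42-fold (interval 3.99 to 4.90, log2 difference 2.14, SE 0.07, edgeR adjusted p = 6.94e-15). Ccnd2 (ENSMUSG00000000184.12; chromosome 6, 127125162 to 127152193, minus strand) had the highest CPM of the 10 genes, at 345, 337 and 335 CPM and at 699, 723 and 712 CPM. It rose 2.10-fold (interval 1.98 to 2.22, log2 difference 1.07, SE 0.04, edgeR adjusted p = 3.08e-14). The 95% intervals of the 3 cyclins do not overlap, so the order Ccnd3, Ccnd1, Ccnd2 in size of increase is larger than the error of each estimate.

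**Figure D2:**
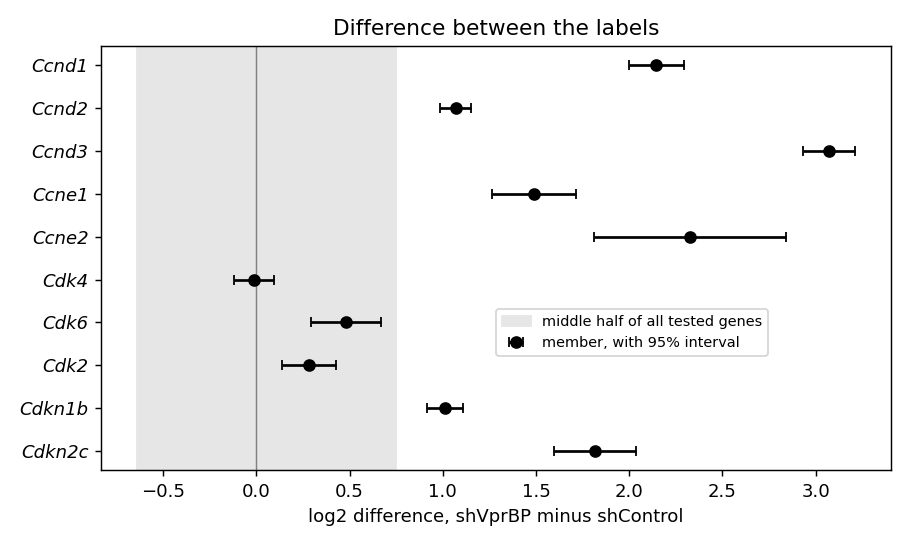
Log2 difference of each G1 gene, shVprBP minus shControl, with its 95% interval from the edgeR fit; the grey band spans the middle of the distribution of all tested genes, from its lower to its upper quartile (-0.64 to 0.75). The 3 kinases lie inside the band and the cyclins and inhibitors to the right of it.

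Because Ccnd3 and Ccnd1 rose more than Ccnd2, the make-up of the D-type cyclin transcripts differed between the labels. Levels of different genes were compared as CPM per kb of annotated exon sequence. Ccnd2 made up 83.3%, 82.1% and 81.9% of the summed D-type cyclin level per kb in the shControl libraries and 59.3%, 61.1% and 62.2% in the shVprBP ones. Ccnd3 held 8.48% ± 0.290 and 25.05% ± 1.73 (SD, n = 3 each), and Ccnd1 9.07% ± 0.477 and 14.1% ± 0.290. Ccnd2 thus remained the main D-type cyclin transcript in all 6 libraries, while Ccnd3 moved from a share near that of Ccnd1 to one above it. The summed D-type cyclin level was 43.7 ± 0.305 CPM per kb in the shControl and 124 ± 2.35 CPM per kb in the shVprBP libraries. These shares do not depend on the scaling between libraries, but their size depends on the length assigned to each gene: by the longest transcript Ccnd3 already held more than Ccnd1 in the shControl libraries (12.6% against 7.45%), and by coding length likewise (7.81% against 5.03%).

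Both E-type cyclins, the partners of Cdk2, were higher in the shVprBP libraries. Ccne1 (ENSMUSG00000002068.16; chromosome 7, 38097984 to 38107534, minus strand) stood at 13.5, 13.6 and 18.1 CPM and at 43.4, 44.0 and 39.5 CPM. Library 3 of the control group was above the other two, and the groups did not overlap. The increase was 2.81-fold (interval 2.40 to 3.28, log2 difference 1.49, SE 0.11, edgeR adjusted p = 4.91e-10). Ccne2 (ENSMUSG00000028212.16; chromosome 4, 11191351 to 11204779, plus strand) was the scarcest of the 10 genes, at 1.72, 2.17 and 1.13 CPM and at 7.55, 9.88 and 7.82 CPM. The shControl values rest on 35.6, 34.6 and 18.7 estimated counts, and the 5.01-fold increase accordingly has the widest interval of the 10 (3.51 to 7.15, log2 difference 2.33, SE 0.24, edgeR adjusted p = 1.00e-07). Ccne1 held 91.9% ± 3.20 of the summed E-type cyclin level per kb in the shControl and 86.9% ± 1.45 in the shVprBP libraries.

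The 3 kinases differed little beside their cyclins. Cdk4 (ENSMUSG00000006728.12; chromosome 10, 127063534 to 127067920, plus strand) stood at 160.5, 166 and 177 CPM in the shControl and at 174, 165 and 161 CPM in the shVprBP libraries, with the groups overlapping. Its log2 difference was -0.01 (interval -0.12 to 0.10, edgeR adjusted p = 0.839). With the scaling used here, changes outside 0.920-fold to 1.07-fold lie beyond the 95% interval. Scaling by library size only gave 0.104, just above the upper limit of 0.096. The sign of the log2 difference turned under 2 settings and on leaving out each of 3 libraries (listed with the processing alternatives), and Cdk4 was called under none. Cdk6 (ENSMUSG00000040274.11; chromosome 5, 3341485 to 3531008, plus strand), the other kinase partner of D-type cyclins, stood at 20.3, 22.9 and 21.6 CPM and at 30.6, 28.1 and 31.6 CPM. It was 1.40-fold higher (interval 1.23 to 1.59, log2 difference 0.48, SE 0.09, edgeR adjusted p = 9.41e-05). Cdk2 (ENSMUSG00000025358.16; chromosome 10, 128697939 to 128705031, minus strand) stood at 92.6, 111 and 108 CPM and at 131, 131 and 116 CPM. ShControl library 1 and shVprBP library 3 were the lowest of their groups, the groups were close but did not overlap, and the gene was 1.22-fold higher (interval 1.10 to 1.34, log2 difference 0.28, SE 0.07, edgeR adjusted p = 0.00108). Per kb, Cdk4 held 74.0% ± 1.35 and 69.6% ± 0.762 of the summed level of the 3 kinases, and that sum was 69.9 ± 3.92 CPM per kb in the shControl and 73.7 ± 3.13 CPM per kb in the shVprBP libraries.

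Both inhibitors rose alongside the cyclins. Cdkn1b (ENSMUSG00000003031.14; chromosome 6, 134920401 to 134925513, plus strand) stood at 135, 139 and 144 CPM in the shControl and at 280.3, 285 and 277 CPM in the shVprBP libraries. The groups were narrow and far apart, and the increase was 2.02-fold (interval 1.89 to 2.15, log2 difference 1.01, SE 0.05, edgeR adjusted p = 5.66e-13). Cdkn2c (ENSMUSG00000028551.14; chromosome 4, 109660876 to 109667189, minus strand) stood at 12.3, 13.2 and 12.7 CPM and at 50.03, 46.3 and 38.1 CPM. shVprBP library 3 was the lowest of its group for Cdkn2c, as it was for 6 of the 10 genes, yet lay above all shControl libraries. The increase was 3.52-fold (interval 3.02 to 4.10, log2 difference 1.82, SE 0.10, edgeR adjusted p = 2.32e-11). Cdkn1b held 86.6% ± 0.461 and 78.8% ± 2.18 of the summed level per kb of these 2 inhibitors, whose sum was 35.3 ± 1.01 and 78.3 ± 2.85 CPM per kb. The increases of the 2 inhibitors and of the D-type and E-type cyclins thus stood beside a nearly level sum of the kinases.

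**Figure D3:**
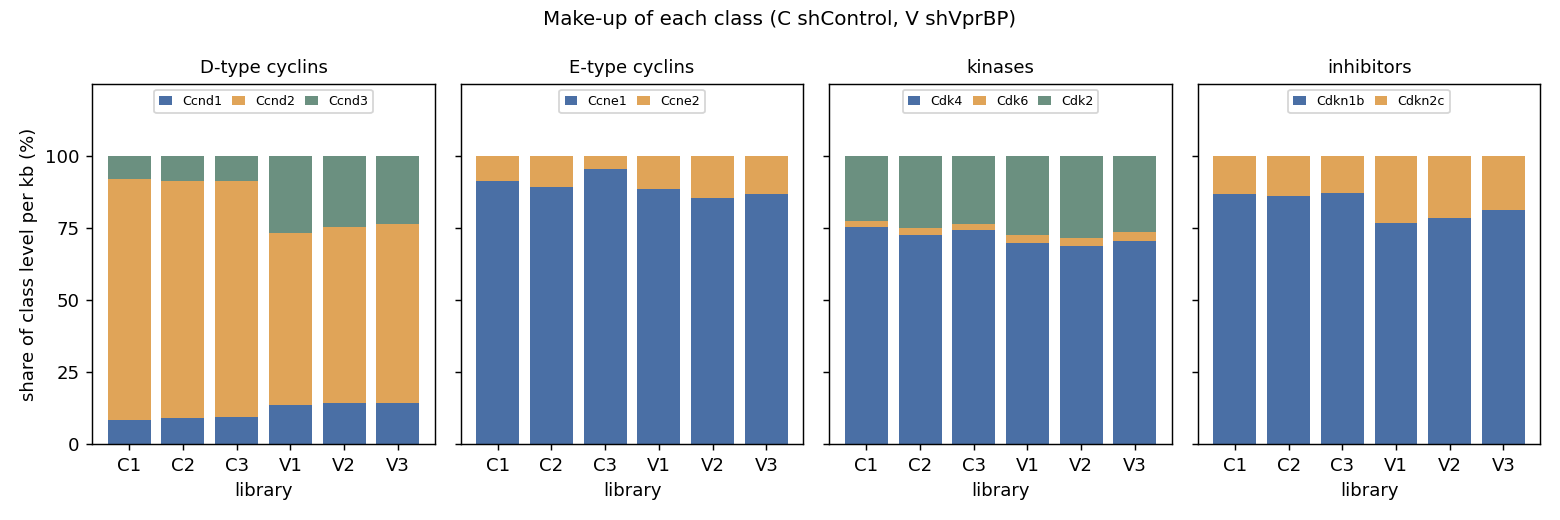
Share of each gene, in percent, in the summed level per kb of its class, for shControl (C1 to C3) and shVprBP (V1 to V3) libraries. Ccnd3 takes 25.05% of the D-type cyclin level in the shVprBP libraries on average against 8.48% in the shControl ones.

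Per kb of the union of annotated exons, Cdk4 was the highest of the 10 genes in the shControl libraries, at 51.7 ± 2.65 CPM per kb, followed by Ccnd2 at 36.0 ± 0.576 and Cdkn1b at 30.6 ± 0.960. In the other group Ccnd2 was the highest, at 75.6 ± 1.26 CPM per kb, followed by Cdkn1b at 61.7 ± 0.834 and Cdk4 at 51.3 ± 1.97. Cdk2 (16.7 ± 1.56 CPM per kb), Ccne1 (5.67 ± 0.990), Cdkn2c (4.74 ± 0.160), Ccnd1 (3.96 ± 0.182) and Ccnd3 (3.71 ± 0.106) followed in the shControl libraries, with Cdk6 (1.54 ± 0.0918) and Ccne2 (0.479 ± 0.148) at the bottom. Ccnd1 and Ccnd3 overlapped there, and no other neighbours in that order did. In the shVprBP libraries Ccnd3 stood at 31.1 ± 2.58, Cdk2 at 20.3 ± 1.40, Ccnd1 at 17.5 ± 0.406, Cdkn2c at 16.7 ± 2.27, Ccne1 at 15.9 ± 0.925, Ccne2 at 2.41 ± 0.365 and Cdk6 at 2.15 ± 0.127 CPM per kb. Among these, Cdkn2c overlapped both Ccnd1 and Ccne1, and Ccne2 overlapped Cdk6, so those neighbours are not told apart by their spread. The ranking depends on the length used. Per kb of coding sequence, Ccnd2 (366 ± 5.85 CPM per kb) and Cdkn1b (235 ± 7.40) stood above Cdk4 (185 ± 9.46) in the shControl libraries already. By the longest transcript, Cdk4 (81.2 ± 3.11) and Ccnd3 (70.8 ± 5.87) stood above Cdkn1b (61.7 ± 0.834) in the shVprBP libraries.

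Several of the 10 genes share exon sequence with a gene on the opposite strand, and the strand setting of the counting is not given in the sources used here. Cdk4 shares 641 exon bases with Tspan31, a tetraspanin, which was lower in the shVprBP libraries (484 ± 8.18 against 271 ± 4.71 CPM, log2 difference -0.84, edgeR adjusted p = 1.79e-12). Ccnd1 shares 1100 bases with LTO1 (16.7 ± 0.877 and 10.6 ± 0.729 CPM) and Ccnd3 361 bases with Bysl, a ribosome biogenesis factor (35.2 ± 1.22 and 22.3 ± 0.540 CPM), both of which were also lower. Ccne2 shares 609 bases with Ints8, an Integrator subunit that was not called (33.4 ± 1.61 and 30.6 ± 0.623 CPM), and Cdk2 shares 34 bases with the abundant pigment gene Pmel (6971 ± 145 and 2505 ± 68.5 CPM). Ccnd2 shares 372 bases with Gm43126 and 368 with 9330179D12Rik, and Cdk6 shares 368 with Gm17590. These antisense genes have no row. The deposited values of Cdk4, Ccnd1, Ccnd3 and Ccne2 were fractional in all 6 libraries (more than 0.01 from a whole number), as they were for Cdkn1b, while those of Ccne1 and Cdkn2c were whole in all 6. No gene that overlaps Cdkn1b was found. The values of Cdk4, Ccnd1, Ccnd3 and Ccne2 are uncertain where reads were divided between neighbours that share exon bases. Those of Ccnd2, Cdk6 and Cdk2 were whole in 2, 5 and 4 of the 6 libraries and are uncertain to the extent that reads were so divided. The effect of that division was not tested.

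The sequence upstream of Cdk4 is shown because Cdk4 alone was not called, and those of Ccnd3 and Cdkn1b because they are the most raised of the 10 and the more abundant inhibitor. The sequences are from RefSeq on GRCm38.p6, in which 7 of the 10 genes matched an entry and Ccnd1, Ccnd2 and Ccne2 did not. They read 5′ to 3′ towards the transcription start, without annotated exon bases. That of Ccnd3 belongs to a second RefSeq start inside the gene and was printed because its window holds a CCAAT box. The Ccnd3 window at the annotated start of the gene holds none and is not shown. Capitals mark the E-box CACGTG in Cdk4 and the CCAAT box in Ccnd3 and Cdkn1b, where the CCAAT box is the letters CCAAT on either strand.
Cdk4, chr10:127063285-127063533, plus strand: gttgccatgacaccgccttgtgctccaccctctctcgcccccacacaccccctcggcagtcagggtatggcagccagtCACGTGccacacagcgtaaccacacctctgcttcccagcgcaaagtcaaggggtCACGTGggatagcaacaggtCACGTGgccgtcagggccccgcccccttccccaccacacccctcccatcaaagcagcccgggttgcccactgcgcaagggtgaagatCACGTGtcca
Ccnd3, chr17:47593217-47593435, plus strand: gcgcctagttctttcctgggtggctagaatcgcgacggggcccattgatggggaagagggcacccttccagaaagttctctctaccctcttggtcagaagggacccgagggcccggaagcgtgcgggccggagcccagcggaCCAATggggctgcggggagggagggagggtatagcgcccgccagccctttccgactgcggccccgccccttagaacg
Cdkn1b, chr6:134920151-134920400, plus strand: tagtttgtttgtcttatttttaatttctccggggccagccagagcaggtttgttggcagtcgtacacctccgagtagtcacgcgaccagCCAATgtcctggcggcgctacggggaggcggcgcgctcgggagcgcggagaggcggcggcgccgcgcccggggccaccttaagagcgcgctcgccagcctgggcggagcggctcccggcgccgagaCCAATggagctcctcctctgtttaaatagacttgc

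In the 250 bases before the start, Cdk4 holds 4 E-boxes, a number reached in 7 of 32851 windows (0.021%) and in 3 of the 10446 tested genes with an entry. The threshold of 4 is the count of Cdk4 itself, and no such count was made for the other motifs. Its rarity is therefore a description of this window and no test. E-boxes are bound by MYC with MAX and, in pigment cells, by MITF. At least 1 E-box was found in 6.02% of all windows and 9.85% of tested genes, and in 2 of the 7 genes, Cdk4 and Cdk6. A CCAAT box was found in 33.85% of windows and 40.9% of tested genes, and in 3 of the 7, Ccnd3 (at 1 of its windows), Cdk2 and Cdkn1b. A GC box (GGGCGG) was found in 32.74% of windows but in 63.69% of tested genes, and in 6 of the 7, all but Cdk6. An E2F motif (TTTCCCGC, TTTCGCGC, TTTGCCGC or TTTGGCGC) was found in 1.86% of windows and 3.86% of tested genes and, of the 7, in Cdk2. The cAMP response element TGACGTCA (1.55% of windows), the AP-1 motif TGANTCA (6.75%) and the CHR motif TTTGAA (15.99%) had no match in the 7 genes. Both strands were searched, motifs may overlap one another, and a match is a run of letters and not a measured site.

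Among the genes upstream of D-type cyclins and Cdkn1b, Myc and Jun went the other way from the G1 genes. Myc, a transcription factor known to promote entry into the cell cycle, stood at 178 ± 4.53 CPM in the shControl and 49.02 ± 5.52 CPM in the shVprBP libraries (3.64-fold lower, edgeR adjusted p = 2.77e-14). Jun, an AP-1 factor known to activate Ccnd1, was 3.36-fold lower (472 ± 25.02 and 141 ± 2.65 CPM) and Tsc1, a restraint on mTOR signalling, 2.42-fold lower. The other 9 of the 12 genes in this list were higher, among them Akt1 (3.02-fold), a kinase that restrains FOXO factors, Ctnnb1 (2.77-fold), the beta-catenin of WNT signalling, and Mitf (3.44-fold), the pigment cell transcription factor and one of the 8 pigment markers above. Mtor, the least raised of the 9 (1.10-fold), lost its call under 5 of 14 alternatives. The median of the list was 0.41 on the log2 scale, with 75% higher and 25% lower beside 37.9% and 37.0% of all tested genes.

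The other inhibitors did not all follow Cdkn1b and Cdkn2c. Of the 3 tested, 2 (66.7%) were higher and 1 (33.3%) lower, beside 37.9% and 37.0% of all tested genes. Cdkn1a (p21), a CIP/KIP inhibitor induced by p53, was 1.62-fold lower in the shVprBP libraries (412 ± 13.1 and 254 ± 8.45 CPM, edgeR adjusted p = 8.10e-11). Cdkn2d (p19), an INK4 inhibitor, was 2.13-fold higher (11.5 ± 0.551 and 24.5 ± 2.39 CPM), and Cdkn1c (p57) was 1.86-fold higher at 2.47 ± 1.41 and 4.52 ± 0.460 CPM. The call of Cdkn1c was lost without shControl library 1 (log2 difference 0.50, edgeR adjusted p = 0.108), without shControl library 2 (0.90, 0.053) and without shVprBP library 2 (0.82, 0.0793). Cdkn2a and Cdkn2b, the remaining INK4 inhibitors, have no row in the table used here, in which the lowest total over the 6 libraries was 10 counts.

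Downstream of the G1 kinases, the listed genes of S phase entry rose together. All 15 listed E2F target genes, of which Cdk1 and Pcna are also proliferation markers above, were higher, 13 of them by at least 1 on the log2 scale, with a median of 2.18. Of all tested genes, 37.9% were higher and 19.4% higher by that much. The list is a selection and does not speak for E2F targets outside it. Cdc25a and Skp2, which are counted in other lists below, were lower, and Mybl2 was not called. Rrm1, the large subunit of ribonucleotide reductase, rose 5.62-fold (26.3 ± 2.27 and 148 ± 5.20 CPM), and the replicative helicase subunits Mcm3, Mcm4 and Mcm6 rose 6.73-fold, 8.13-fold and 6.21-fold. Of the 10 genes of E2F factors and their partners, 7 were higher, 2 lower and 1 not called (median 0.81). That is 70% higher and 20% lower, beside 37.9% and 37.0% of all tested genes. E2f1, an activator of S phase genes, rose 3.81-fold (10.2 ± 0.478 and 38.9 ± 0.805 CPM), and the repressors E2f7 and E2f8 rose 9.66-fold and 15.1-fold from 1.92 ± 0.241 and 0.943 ± 0.0561 CPM. E2f5 and E2f4, which act with pocket proteins as repressors, were 1.80-fold and 1.28-fold lower, and the call of E2f4 was lost with scaling by library size only (edgeR adjusted p = 0.0817) and without shControl library 2 (0.0873).

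Pocket proteins, which E2F factors bind, were higher. Rb1 rose 2.42-fold (22.6 ± 1.23 and 54.5 ± 3.97 CPM), Rbl1 1.76-fold and Rbl2 1.70-fold. The DREAM complex represses cell cycle genes in quiescence. The whole list holds pocket proteins, DREAM subunits and the transcription factors Foxm1 and Mybl2, which are not subunits of the repressing complex. Of its 10 genes, 5 were higher, 3 lower and 2, one of them Mybl2, not called (median 0.31). That is 50% higher and 30% lower, beside 37.9% and 37.0% of all tested genes. Foxm1, a transcription factor of mitotic genes, had the largest increase of the list, 31.0-fold from 2.28 ± 1.03 to 73.1 ± 5.32 CPM. The DREAM subunits Lin52, Lin37 and Lin54 were 3.45-fold, 2.18-fold and 1.497-fold lower.

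Genes that activate or restrain the kinases after synthesis were split. The 3 subunits of the CDK-activating kinase were lower, Cdk7 by 1.87-fold (26.4 ± 1.002 and 14.1 ± 2.11 CPM), Ccnh by 1.26-fold and Mnat1 by 1.15-fold. Cdc25a, the phosphatase that activates Cdk2, was 1.34-fold lower, whereas the mitotic phosphatases Cdc25b and Cdc25c were 5.23-fold and 4.54-fold higher and the inhibitory kinases Wee1 and Pkmyt1 5.17-fold and 2.24-fold higher. Of these 8 genes, 4 (50%) were higher and 4 (50%) lower, beside 37.9% and 37.0% of all tested genes (median 0.48). The call of Mnat1 was lost under 7 of 14 alternatives, for example with scaling by library size only (log2 difference -0.08, edgeR adjusted p = 0.349).

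Among genes of protein turnover in G1, Skp2, the F-box protein that directs p27 to degradation, was 2.15-fold lower (41.8 ± 1.99 and 19.4 ± 1.24 CPM, edgeR adjusted p = 1.22e-09). Fbxo4, another F-box protein, was 1.98-fold lower. Fbxo5, an inhibitor of the anaphase-promoting complex, rose 5.97-fold, Fbxo31 2.52-fold, Cks1b 1.67-fold and the SCF scaffold Cul1 1.32-fold. Ambra1, the receptor that directs D-type cyclins to degradation, was 1.12-fold lower (53.8 ± 2.34 and 47.9 ± 1.10 CPM), a call lost under 7 of 14 alternatives. Fbxw7, which directs cyclin E to degradation, was not called (16.6 ± 1.02 and 16.5 ± 1.65 CPM), nor was the RING subunit Rbx1. In all, 6 of these 11 genes (54.5%) were higher and 3 (27.3%) lower, beside 37.9% and 37.0% of all tested genes (median 0.20).

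A list of 17 other cyclins and kinases, which holds none of S phase or mitosis, was mixed. Of the 17, 6 (35.3%) were higher, 9 (52.9%) lower and 2 not called, beside 37.9% and 37.0% of all tested genes, with a median log2 difference of -0.36. The S phase and mitotic genes Ccna2, Cdk1 and Ccnb1, counted with the E2F targets or proliferation markers, were 8.39-fold, 4.52-fold and 7.68-fold higher. Ccnl2 and Ccnl1, cyclins linked to splicing, were 2.54-fold and 2.30-fold lower (591 ± 7.08 and 232 ± 7.22 CPM for Ccnl2), and Ccng1, a p53 target, was 1.64-fold lower. Cdk17 was 1.81-fold higher. Over all 88 genes of these lists, 86 were tested and 54 were higher, 25 lower and 7 not called. They were chosen with earlier results of these data known, and the counts are read only beside the 37.9% and 37.0% of all tested genes on each side.

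**Figure D4:**
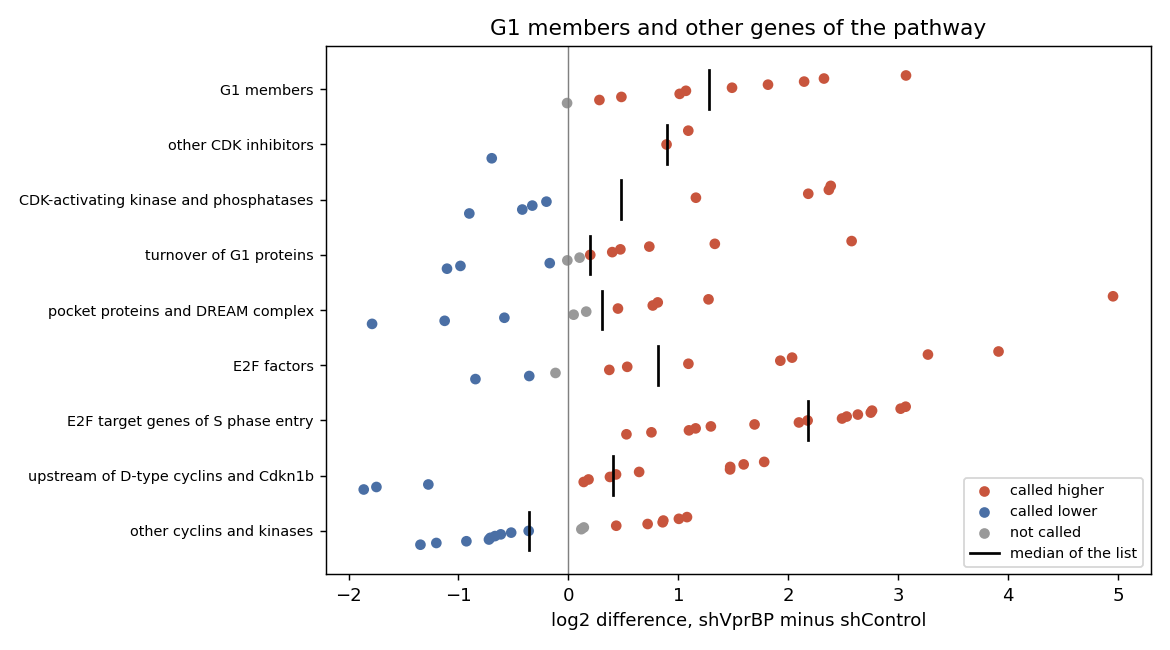
Log2 difference, shVprBP minus shControl, of the 10 G1 genes and of each gene in 8 further lists; colour gives the call, and a black bar the median of the list. The listed E2F target genes all lie to the right of 0, and other cyclins and kinases spread to both sides with a median of -0.36.

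Genes with a profile over the 6 libraries most like that of the most abundant member of each class, per kb, were sought among 9307 named genes averaging 10 CPM or more. Likeness was the root mean square distance between log2 CPM profiles, each centred on its mean. The nearest to Ccnd2 were Eif4b (0.021) and Mlph (0.024), with 308 genes within 0.1. Eif4b, a translation initiation factor, stood at 199 ± 1.44 and 422 ± 7.93 CPM. The nearest to Ccne1 were Mgst3 (0.067) and Tead3 (0.075), with 16 genes within 0.1. Cdk4 was nearest to Acbd6 (0.015) and Gprc5b (0.017), with 781 genes within 0.1, and Cdkn1b to Asxl1 (0.013) and R3hdm4 (0.021), with 316 within 0.1. With 6 libraries in 2 groups, likeness mostly reflects a similar difference between the labels.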

How the data were processed

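RNA from 6 libraries was quantified by the authors, who deposited 1 table of expected counts (estimated counts, partly fractional, with differing library totals). Partek and mm10 appear in the submitters' processing notes; which aligner, counter, strand setting or annotation release was used is not given in the sources used here. Of 18908 gene IDs, 18501 (97.8%) matched GENCODE M21 on GRCm38 with the same coordinates. Rounded counts were analysed with edgeR 4.0.16 under R 4.3.3 (quasi-likelihood F test, TMM scaling, filterByExpr, group as the only term), with Benjamini-Hochberg adjustment over 14641 genes. Levels are CPM from TMM-scaled library sizes, as mean ± SD (n = 3). The permutation test used log2(CPM + 0.5). Levels per kb used the union of annotated exons. The fit was tested on simulated counts of 14389 genes: edgeR recovered 96.0% of genes changed by 1 on the log2 scale, with 9 false calls. Only 99 genes were changed by 1 and 98 by 2, in both directions, and all genes had the same dispersion. In the data 75.0% of tested genes were called, so the simulation does not test the scaling under so wide a difference. Intervals and floors cover these libraries only, and without molecular identifiers a read need not be its own molecule.

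The members and gene lists were chosen with earlier results of these data known. All members were named, with up to 4 genes per list by smallest p and exceptions to a list's direction. Some further genes, such as Cks1b, Rbl2 and Mtor, were named outside that rule. Alternatives were other scalings, filters, DESeq2 1.42.0, limma 3.58.1 (voom), a replicate block, a fold threshold, gene lengths and leaving out each library.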

Additional observations from a re-analysis of the deposited data

How the results depend on the processing

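The 9 G1 genes called higher and the 0 called lower were counted alike under the 14 alternatives of scaling, filter, test, replicate block and left-out library, and 7 were higher by at least 1 on the log2 scale (6 under 3 of the alternatives, without Cdkn1b). Under that threshold 33 of the other pathway genes were higher and 8 lower (from 54 and 25), and 2843 of all genes higher and 2080 lower (from 5552 and 5422). With library size as the only scaling, the median log2 difference over all genes shifted by 0.12, giving 6160 higher and 4719 lower. No G1 gene changed its call. The log2 difference of Cdk4 turned positive with library size only (0.10), without a filter (0.0022) and on leaving out control 3, VprBP 2 or VprBP 3, with a range of -0.0503 to 0.0199 over the 6 left-out libraries. That of Fbxw7 did so with library size only (0.11), without a filter (0.00430) and on leaving out control 3, VprBP 1 or VprBP 3 (range -0.0852 to 0.0549), and that of Lin9 turned negative on leaving out control 3 or VprBP 2 (range -0.0578 to 0.173).

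Gene length moved the shares within a class. With the longest transcript, shControl and shVprBP shares were 7.45% and 10.7% for Ccnd1, 80.0% and 54.8% for Ccnd2, 12.6% and 34.5% for Ccnd3 and 70.9% and 66.3% for Cdk4, with 88.3% for Ccne1 in the shVprBP and 85.6% for Cdkn1b in the shControl libraries. With coding length they were 5.03% and 8.20% for Ccnd1, 87.2% and 67.6% for Ccnd2, 60.3% and 54.7% for Cdk4 and 90.3% and 84.3% for Cdkn1b, with 7.81% for Ccnd3 in the shControl and 82.1% for Ccne1 in the shVprBP libraries. The direction of each difference between labels was the same with each length.

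Same-numbered libraries did not deviate together (correlations of deviations -0.032, 0.0066 and -0.042), and libraries did not correlate best with their own number, so the numbers were not taken as pairs. With the replicate number as a block, 9 G1 genes were higher and 0 lower, other pathway genes were 54 higher and 25 lower, and all genes 5395 higher and 5254 lower. At 16839445 counts or more, depth limits mainly Ccne2.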

Other observations

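Cdkn2a and Cdkn2b belong to a run of 8 neighbouring protein-coding genes on chromosome 4 that have no row (with Dmrta1, Zfp352, Elavl2, Izumo3, Gm12666 and Tusc1), a stretch of 5.32 Mb on GRCm38 between Mtap and Caap1. This run was looked at after the 2 inhibitors were seen to have no row. The protein-coding genes from Gm13276 to Ifne, on the other side of Mtap, form another run without a row. How often such runs occur was not counted. Mtap, which makes adenine from methylthioadenosine and lies next to Cdkn2a, had a level of 32.9 ± 0.657 CPM in shControl and 97.1 ± 7.42 CPM in shVprBP libraries, and Caap1 at 9.23 ± 0.755 and 7.98 ± 1.55 CPM.

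ShControl library 1 had the lowest level of its group for 8 of the 10 G1 genes, and shVprBP library 3 for 6 of the 10.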
